A study of Mus musculus with 12 samples.

Results

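Of the 36047 genes with a transcript in the deposited liver RNA-seq files, 10 encode the metabolic nuclear receptors described here: Ppara, Pparg, Ppard, Nr1h3, Nr1h4, Nr0b2, Nr1i2, Nr1i3, Rxra and Hnf4a. They were chosen by name and not by a measured value, though with earlier results of these data known. All 10 passed the filter on low counts. Nuclear receptors are transcription factors, most of which are switched by small lipophilic ligands such as fatty acids, oxysterols, bile acids or foreign compounds. PPARα (Ppara), LXRα (Nr1h3), FXR (Nr1h4), PXR (Nr1i2) and CAR (Nr1i3) bind DNA as heterodimers with RXRα (Rxra), whereas HNF4α (Hnf4a) binds as a homodimer and SHP (Nr0b2) lacks a DNA-binding domain and represses other receptors. In the liver they set the rates of fatty acid oxidation, lipogenesis, bile acid synthesis and drug metabolism.

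Livers were taken from 12 male C57Bl/6J mice, 5 to 6 months old, single-housed, after 7 days on the diets and 4 h without food. According to the paper, the mice also received deuterated water, injected at the start and then given to drink. In the sample labels the tag 'diet' holds the fat level and 'dietary fat content' holds Ctrl or SAAR, and these tags were read as swapped. The mice formed 4 groups of 3: regular-fat control (RF.Ctrl, 18% of energy as fat), restriction of sulfur amino acids on regular fat (RF.SAAR), high-fat control (HF.Ctrl, 60% of energy as fat) and the same restriction on high fat (HF.SAAR). Every diet lacked cysteine, the controls included, and the SAAR diets held less methionine, balanced with glutamic acid. Libraries were made from polyA-selected RNA and held 16203094 to 21230092 estimated counts each, so all values describe whole liver, in which fewer cells of a type and less RNA per cell cannot be told apart.

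The sequences that matter most here are exon joins of Nr1i3 (ENSMUSG00000005677), because the estimated counts of its transcripts did not move together with the diet. Nr1i3 spans chr1:171213970-171220701 on the plus strand of GRCm38 and has 8 annotated transcripts. In the 30 bases below, read from GENCODE M21 transcripts, lower case is the end of the upstream exon and capitals are the start of the next exon used. The first pair is the join after exon 1 (chr1:171214159-171214173), which leads to exon 2 (chr1:171214343-171214357) in Nr1i3-201, the form matched to RefSeq with 358 codons, and to a later exon (chr1:171216379-171216393) in Nr1i3-208, which has 221 annotated codons and no RefSeq match.
Nr1i3-201: gcctaagggaaacagGAGACCATGACAGCT
Nr1i3-208: gcctaagggaaacagTGATACTGTCAGCAG
The second pair is the join after exon 2 (chr1:171214471-171214485), which leads to exon 3 (chr1:171214944-171214958) in Nr1i3-201 and past it in Nr1i3-204, a transcript annotated as a target of nonsense-mediated decay.
Nr1i3-201: caagggcttcttcagACGAACAGTCAGCAA
Nr1i3-204: caagggcttcttcagTGATACTGTCAGCAG
The Nr1i3-208 and Nr1i3-204 joins occur in no other annotated Nr1i3 transcript, whereas the first Nr1i3-201 join is shared by 6 transcripts.

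Pparg is shown by its start windows, because its transcripts with different starts had different values. The windows are plus-strand RefSeq promoters of 300 bases on GRCm38.p6, from 250 bases before to 50 bases after the start, and capitals mark the nuclear receptor hexamer AGGTCA. The upstream window (chr6:115360894-115361193) is nearest to Pparg-202, which encodes 475 codons. The RefSeq start of this window lies 193 bases downstream of the annotated Pparg-202 start, and so the marked hexamer also lies downstream of that annotated start. The downstream window (chr6:115421816-115422115) lies at Pparg-201, which encodes 505 codons. A window between them, at Pparg-206, also holds the hexamer and is not printed.
Pparg upstream: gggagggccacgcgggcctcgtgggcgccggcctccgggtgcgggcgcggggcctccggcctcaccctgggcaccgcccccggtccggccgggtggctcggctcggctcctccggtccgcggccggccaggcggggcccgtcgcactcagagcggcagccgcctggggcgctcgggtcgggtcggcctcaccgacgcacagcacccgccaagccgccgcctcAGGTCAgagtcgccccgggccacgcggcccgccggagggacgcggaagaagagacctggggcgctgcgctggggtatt
Pparg downstream: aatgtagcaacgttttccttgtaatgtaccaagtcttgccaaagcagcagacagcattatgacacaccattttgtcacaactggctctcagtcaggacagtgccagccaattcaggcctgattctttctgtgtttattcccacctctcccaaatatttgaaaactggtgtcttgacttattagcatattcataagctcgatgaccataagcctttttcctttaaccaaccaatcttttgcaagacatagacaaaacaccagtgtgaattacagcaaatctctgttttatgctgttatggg
AGGTCA or its reverse complement TGACCT stood in 4 of the 15 promoter windows of the 10 genes, belonging to 3 genes (Pparg, Nr1h4 and Rxra), and in 16.3% of 32851 mouse promoters of this length. A match describes letters only and is not a binding site.

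The receptors were among the most abundant nuclear receptor transcripts of these livers. Levels are compared between genes as TPM, transcript abundance scaled per library after division by length. Hnf4a, a master regulator of hepatocyte genes, had the highest median over the 12 mice at 105 TPM (range 93.4 to 155), followed by Nr1i3 at 97.8 TPM (62.7 to 153). The rank of Nr1i3 rests on the sum of its 8 annotated transcripts, which all share exon bases with Tomm40l on the opposite strand. Its RefSeq-matched forms had medians of only 7.87 (Nr1i3-201), 8.61 (Nr1i3-202) and 2.25 TPM (Nr1i3-203). Nr1h4 had a median of 68.2 TPM, Rxra 64.6 TPM, Nr1h3 48.7 TPM, Ppara 39.0 TPM, Nr1i2 34.5 TPM and Nr0b2 27.7 TPM. Pparg, the adipocyte regulator, and Ppard, which is expressed in many tissues, were far lower, at 4.0 and 2.05 TPM. Among 49 nuclear receptor genes, 8 of the 10 highest medians belonged to members, with the circadian repressors Nr1d2 and Nr1d1 as the other two.

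**Figure D1:**
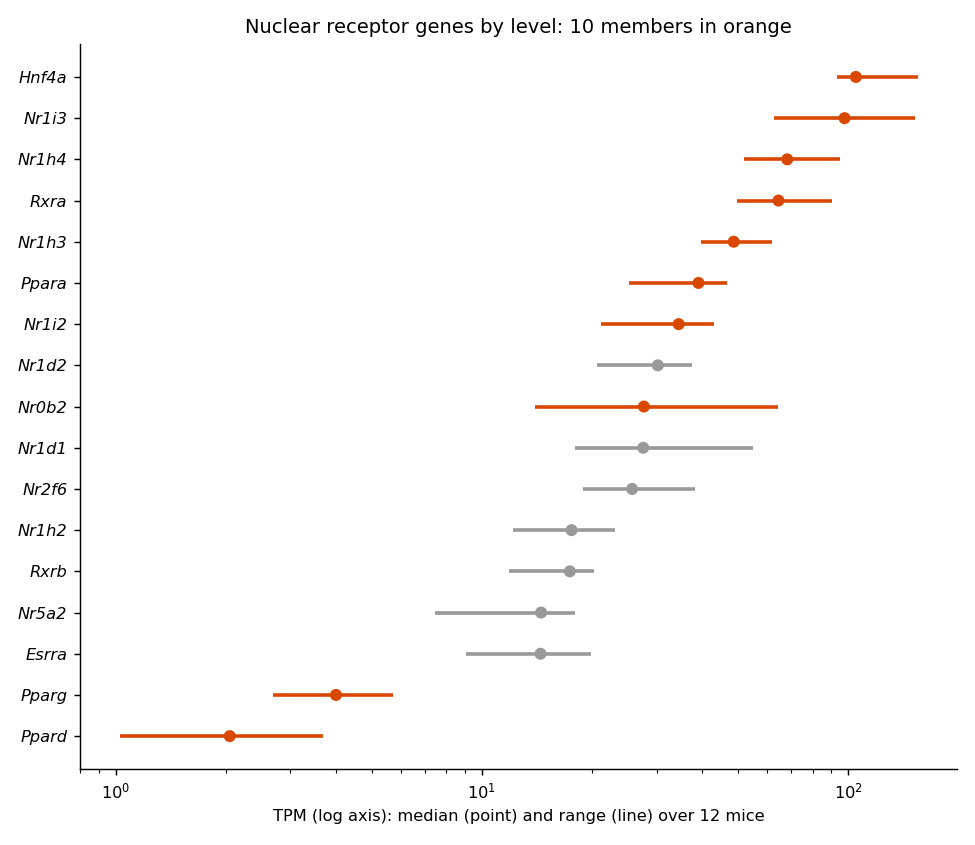
Level of nuclear receptor genes in TPM on a log axis, with the median (point) and the range (line) over 12 mice, for the 15 highest of 49 genes and the 2 members below them. Hnf4a, at 105 TPM, and Nr1i3, at 97.8 TPM, lead the order, and Pparg and Ppard close it at 4.0 and 2.05 TPM. The Nr1i3 value sums all its annotated transcripts, most of it from forms without a RefSeq match.

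The order was firm at some steps only. Nr1i3 exceeded Nr1h4, Rxra exceeded Nr1h3, Nr1h3 exceeded Ppara and Nr0b2 exceeded Pparg in 12 of 12 mice. Hnf4a exceeded Nr1i3 in 9 mice, Nr1h4 exceeded Rxra in 10, Ppara exceeded Nr1i2 in 7 and Nr1i2 exceeded Nr0b2 in 7, so these neighbours were not separated by their spread. The ranges over 12 mice were disjoint only between Nr0b2 and Pparg. Variation between mice of a group also differed, and is given as the coefficient of variation of CPM, the count scaled to a common library size with TMM factors. It averaged 3.72% for Rxra, the shared partner, and 34.1% for Nr0b2, the bile acid-induced repressor.

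Restriction was compared with control on each fat level, and averaged over both, with edgeR's quasi-likelihood test across 14670 genes. A gene was called at a Benjamini-Hochberg adjusted p below 0.05. No member was called in RF.SAAR vs. RF.Ctrl, where 1.49% of all genes were called, or in HF.SAAR vs. HF.Ctrl, where 1.97% were. DESeq2 also called 0 members in either comparison. At an unadjusted p below 0.05, 2 of 10 members passed on regular fat (Nr1i3 and Nr0b2) and 2 on high fat (Nr1i3 and Nr1i2), beside 13.6% and 12.4% of all genes. In the average over both fat levels, which uses the same mice again, 1 member was called, Nr1i3, which rose, beside 6.92% of all genes called and 3.22% called higher. At an unadjusted p below 0.05, 3 members passed there (Nr1i3, Nr1i2 and Nr0b2), beside 20.3% of all genes. The members' median log2 fold change was 0.11 in this average, against -0.0039 for all genes.

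**Figure D2:**
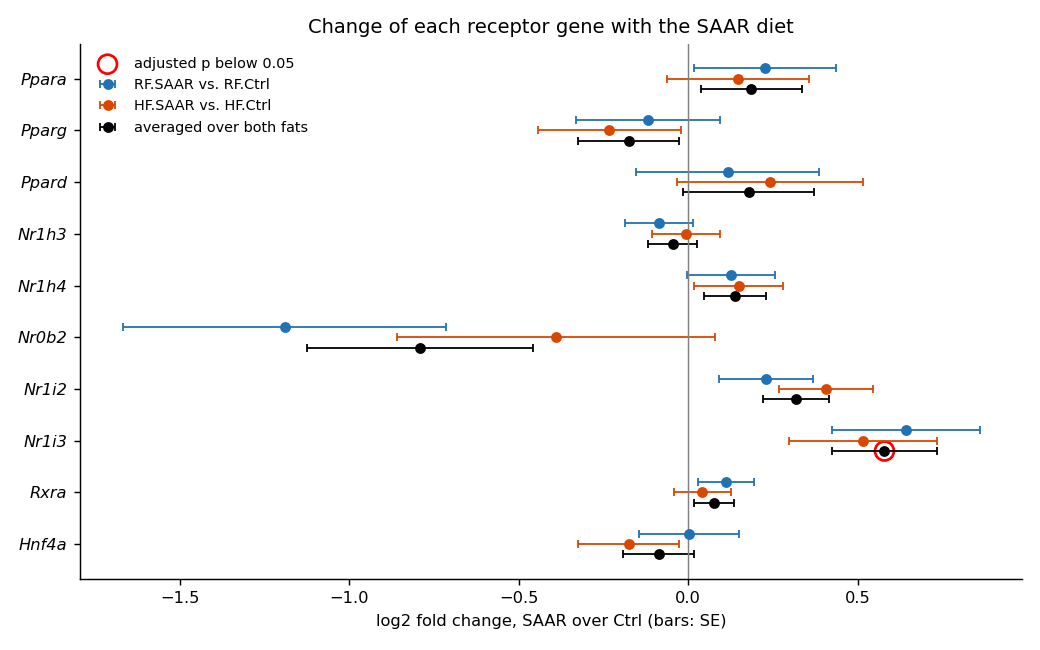
Log2 fold change of each receptor gene, SAAR over Ctrl, with its SE as a bar, on regular fat (blue), on high fat (orange) and averaged over both (black). The red circle marks the adjusted p below 0.05, which Nr1i3 alone reached, at 0.58 in the average.

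Nr1i3 encodes CAR, the xenobiotic sensor that induces drug-metabolizing enzymes. It had 154, 112 and 146 CPM in RF.Ctrl mice 1, 2 and 3, and 272, 180 and 190 CPM in the RF.SAAR mice. On high fat it had 144, 194 and 230 CPM in the HF.Ctrl mice and 281, 323 and 208 CPM in the HF.SAAR mice. Every RF.SAAR mouse was above every RF.Ctrl mouse, while on high fat HF.SAAR mouse 3 lay below HF.Ctrl mouse 3. Such separation on regular fat was seen for 3 of 10 members (Nr1i3, Nr1i2 and Rxra), beside 18.2% of all genes, and on high fat for 0 of 10, beside 17.9%.

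The averaged change of Nr1i3 was 0.58 on the log2 scale (SE 0.15, adjusted p = 0.0420, edgeR), with 0.64 (SE 0.22, adjusted p = 0.195) on regular fat and 0.52 (SE 0.22, adjusted p = 0.340) on high fat. The call sat at the threshold. It was lost when any of 9 mice was left out (adjusted p 0.0551 to 0.0998) and kept without RF.SAAR mouse 2 (0.0435), HF.Ctrl mouse 3 (0.0340) or HF.SAAR mouse 3 (0.0259). Hepatocyte markers, 8 genes summed, were 79745 to 93987 CPM in RF.Ctrl and 72212 to 79010 CPM in RF.SAAR, and 73032 to 87111 and 72934 to 83271 CPM in HF.Ctrl and HF.SAAR. Cholangiocyte markers, 5 genes summed, were 42.9 to 62.0 CPM in the control mice and 35.2 to 42.9 CPM in the SAAR mice. Their part in the Nr1i3 result was not tested.

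Nr1i2 encodes PXR, the relative of CAR that senses bile acids and drugs. It had 78.1, 74.3 and 67.2 CPM in the RF.Ctrl mice, 78.7, 93.9 and 84.9 in the RF.SAAR mice, 56.9, 77.0 and 59.8 in the HF.Ctrl mice and 86.4, 97.9 and 72.3 in the HF.SAAR mice. The groups were apart on regular fat by less than 1 CPM at the nearest mice and overlapped on high fat through HF.Ctrl mouse 2 and HF.SAAR mouse 3. The averaged difference of 0.32 (SE 0.10) had an adjusted p of 0.0714 in edgeR and 0.0273 in DESeq2. It passed in edgeR without HF.Ctrl mouse 2 (0.0248) or HF.SAAR mouse 3 (0.0431). In TPM, which has no TMM scaling, 4 of 10 members (Nr1i2, Nr1i3, Nr1h4 and Rxra) were higher in every SAAR mouse than in every control mouse on regular fat, beside 26.6% of all genes, and the same 4 on high fat, beside 27.7%. No member was lower without overlap in TPM, beside 2.11% and 1.33% of all genes, so separation on that scale was common among genes and mostly in the same direction.

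Nr0b2 encodes SHP, through which FXR represses bile acid synthesis. It had 35.3, 57.4 and 12.9 CPM in the RF.Ctrl mice and 21.2, 13.4 and 11.9 CPM in the RF.SAAR mice. The spread among RF.Ctrl mice alone covered all RF.SAAR values but the lowest. On high fat it had 28.5, 33.4 and 34.3 CPM in the HF.Ctrl mice and 31.8, 25.2 and 16.5 CPM in the HF.SAAR mice. Its differences were -1.19 (SE 0.48, adjusted p = 0.312, edgeR) on regular fat, -0.39 (SE 0.47) on high fat and -0.79 (SE 0.33, adjusted p = 0.223) averaged. Without RF.Ctrl mouse 3, the low control, the averaged difference was -0.99 with an adjusted p of 0.0268, and without RF.Ctrl mouse 2, the high control, it was -0.52 with an adjusted p of 0.389.

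**Figure D3:**
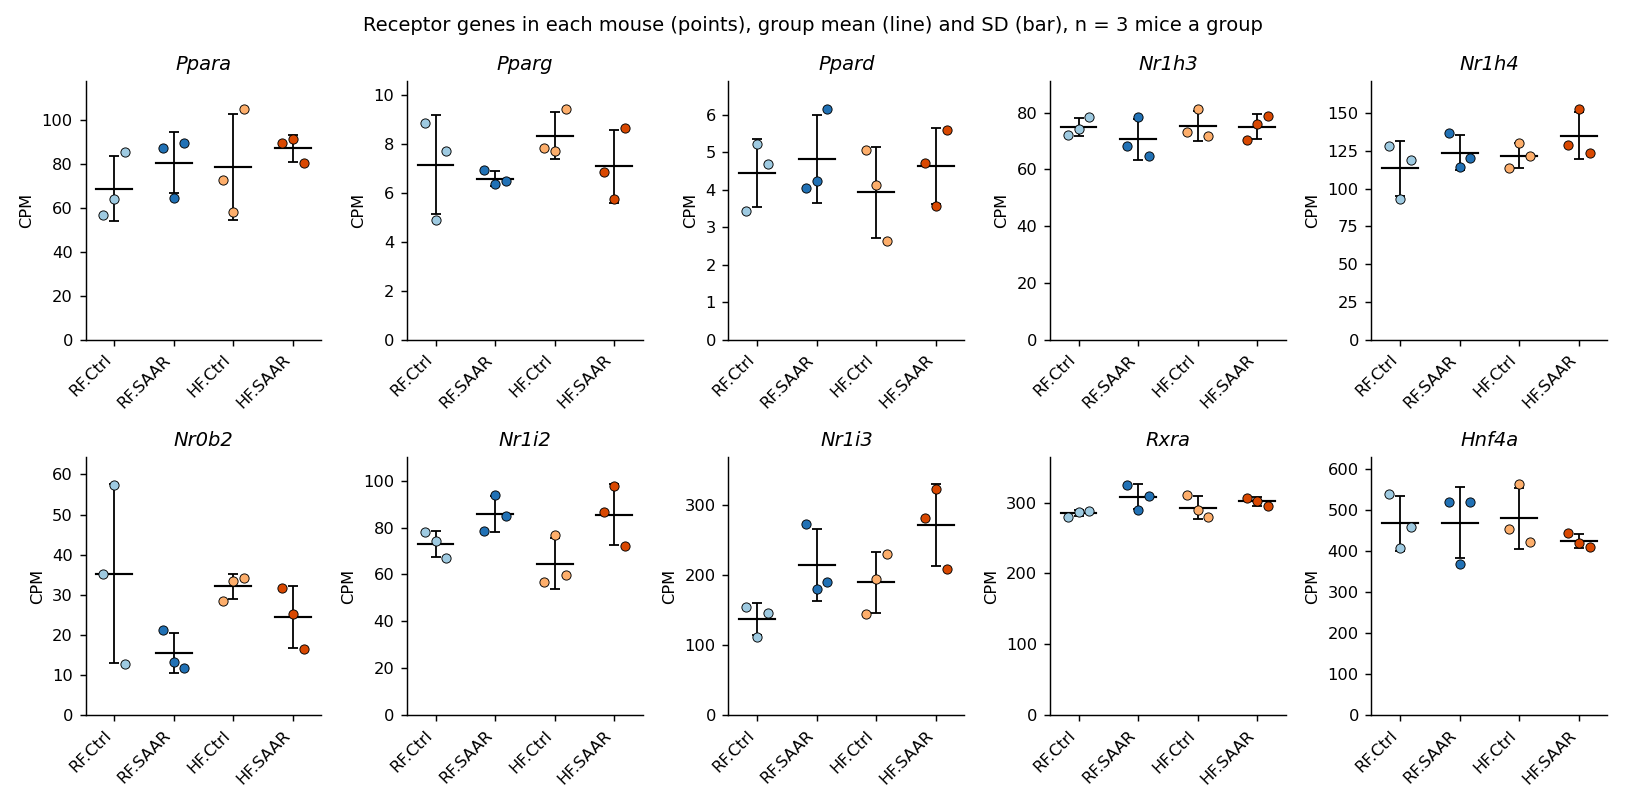
CPM of each of the 10 receptor genes in every mouse (points), with the group mean (line) and SD (bar), n = 3 mice a group; every axis starts at 0. Nr1i3 and Nr1i2 tend to lie higher in SAAR groups, Nr0b2 spreads from 12.9 to 57.4 CPM within RF.Ctrl, and the other receptors overlap between groups or nearly so.

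Among the fatty acid receptors, Ppara, which drives fatty acid oxidation, had a mean of 68.7 ± 14.9 CPM (SD, n = 3) in RF.Ctrl, 80.3 ± 13.9 in RF.SAAR, 78.4 ± 24.0 in HF.Ctrl and 86.9 ± 5.99 in HF.SAAR. Its averaged log2 difference was 0.19 with a 95% interval of -0.14 to 0.51, so neither no change nor a rise of that upper size was resolved. Pparg had 4.91 to 9.45 CPM and Ppard 2.62 to 6.16 CPM over the 12 mice, with averaged differences of -0.18 (-0.50 to 0.15) and 0.18 (-0.24 to 0.59).

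Nr1h3, the oxysterol sensor that induces lipogenic genes, stayed within 64.8 to 81.4 CPM in all mice, and its averaged difference was -0.05 (95% interval -0.20 to 0.11). Nr1h4, the bile acid sensor, had 93.0 to 153 CPM and an averaged difference of 0.14 (-0.06 to 0.34). For Rxra the values were 279 to 325 CPM and 0.08 (-0.05 to 0.20), and for Hnf4a 369 to 563 CPM and -0.09 (-0.31 to 0.14). The intervals of Nr1h3, Rxra and Hnf4a lay within 0.32 on the log2 scale of 0, in either direction. Scaling bore on these small values, since all genes shifted by a median of 0.16 towards SAAR when libraries were scaled by size alone rather than by TMM, whose factors were 0.863 to 0.998 in the control mice and 0.980 to 1.11 in the SAAR mice. Under that scaling the averaged differences of Nr1h3 (0.12) and Hnf4a (0.09) turned positive, and Nr1h4, Nr1i2, Nr1i3 and Rxra were all called higher, beside 16.7% of all genes called.

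Dietary fat by itself moved no member past the threshold. In HF.Ctrl vs. RF.Ctrl 0 of 14670 genes were called by edgeR, with 3.59% at an unadjusted p below 0.05 but 0 members, and DESeq2 called 0 members. In HF.SAAR vs. RF.SAAR 0.0477% of genes were called and no member (5.59% of genes and 0 members at an unadjusted p below 0.05, and 0 members with DESeq2), and averaged over diet 0.0409% and no member by either tool. Nr1i3 had the widest averaged fat difference of the members, 0.40 higher on high fat (SE 0.15, adjusted p = 0.715, edgeR) and the one with an unadjusted p below 0.05, beside 5.84% of genes. The difference between the SAAR changes on the 2 fat levels, an interaction called for 0.00682% of genes, was not called for any member by edgeR or DESeq2, and 0 members had an unadjusted p below 0.05, beside 3.15% of genes. For Nr0b2 it was 0.80 (95% interval -0.70 to 2.30) and for Nr1i3 -0.13 (-0.79 to 0.54), which leaves room for sizeable differences in either direction.

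The Nr1i3 sum combined transcripts whose estimated counts moved in opposite directions. Nr1i3-201 has 1 exon base found in no other annotated Nr1i3 transcript, and Nr1i3-202, Nr1i3-203 and Nr1i3-204 have 0. Their split therefore rests on exon joins and on how kallisto divides shared reads. Kallisto assigned 41.4% of its counts to Nr1i3-208 and 33.7% to Nr1i3-207, which retains an intron, but only 5.0% to Nr1i3-201, the RefSeq form whose joins are printed above. Nr1i3-201 had 8.43, 15.7 and 15.3 CPM in the RF.Ctrl mice and 8.19, 6.95 and 5.39 CPM in the RF.SAAR mice. On high fat it had 15.4, 12.0 and 16.7 CPM in the HF.Ctrl mice and 5.44, 5.32 and 9.54 CPM in the HF.SAAR mice. Every SAAR mouse lay below every control mouse at the same fat level, although RF.Ctrl mouse 1 and RF.SAAR mouse 1 nearly met. The share of all transcripts that separate without overlap was not computed. Of all genes, 18.2% on regular fat and 17.9% on high fat did so, in either direction.

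Nr1i3-201 fell by 1.03 on the log2 scale in the average (SE 0.21, adjusted p = 0.0448, edgeR on transcripts), and Nr1i3-204 rose by 0.71 (SE 0.12, adjusted p = 0.0211). These were the 2 called among 34 member transcripts tested, beside 1.49% of 36098 transcripts. On regular fat 0 of the 34 were called, beside 0.144% of transcripts, and on high fat 0, beside 0.352%; 5 and 6 had an unadjusted p below 0.05, beside 7.90% and 7.67% of transcripts, and DESeq2 was not run on transcripts. Nr1i3-204 ranged in CPM over 6.35 to 8.43 for the RF.Ctrl mice, 10.7 to 14.6 for RF.SAAR, 8.85 to 9.88 for HF.Ctrl and 12.0 to 16.6 for HF.SAAR. These ranges did not overlap at either fat level, a separation whose share among all transcripts was not computed. The abundant Nr1i3-208 (0.75, adjusted p = 0.111), Nr1i3-205 (0.72, 0.0736) and Nr1i3-207 (0.67, 0.297) pointed the same way as Nr1i3-204 without being called. Both calls were close to the threshold: leaving out 1 mouse at a time ended that of Nr1i3-201 for 10 of 12 mice (highest adjusted p = 0.126; kept without RF.Ctrl mouse 1 or HF.SAAR mouse 3) and that of Nr1i3-204 for 7 of 12 (highest 0.0668; kept without RF.Ctrl mouse 1, RF.SAAR mouse 3, HF.Ctrl mouse 2 or 3, or HF.SAAR mouse 3).

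The direction of the estimated Nr1i3 count therefore depended on which transcripts were counted. The 3 RefSeq-matched transcripts together had 24.1 ± 3.53 CPM (SD, n = 3) in RF.Ctrl, 18.1 ± 2.83 in RF.SAAR, 27.4 ± 5.02 in HF.Ctrl and 22.0 ± 1.40 in HF.SAAR. Of the 3, only Nr1i3-201 had a lower SAAR mean at both fat levels. Its means were 13.2 and 6.84 CPM in RF.Ctrl and RF.SAAR, and 14.7 and 6.77 CPM in HF.Ctrl and HF.SAAR. In the same order of groups, Nr1i3-202 had 8.43, 9.14, 9.91 and 12.2 CPM, and Nr1i3-203 had 2.53, 2.12, 2.75 and 3.08 CPM. When Nr1i3 was counted over the 3 RefSeq-matched transcripts alone, its averaged log2 difference was -0.36 (adjusted p = 0.0688, edgeR). This sign was opposite to that of the full sum. The other 5 transcripts together had 112 ± 26.3 CPM in RF.Ctrl, 195 ± 49.1 in RF.SAAR, 161 ± 41.3 in HF.Ctrl and 246 ± 56.8 in HF.SAAR. Thus the RefSeq-matched share was 13.9% to 25.4% of Nr1i3 counts in RF.Ctrl mice, 7.68% to 10.2% in RF.SAAR, 11.3% to 19.8% in HF.Ctrl and 6.87% to 11.3% in HF.SAAR.

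**Figure D4:**
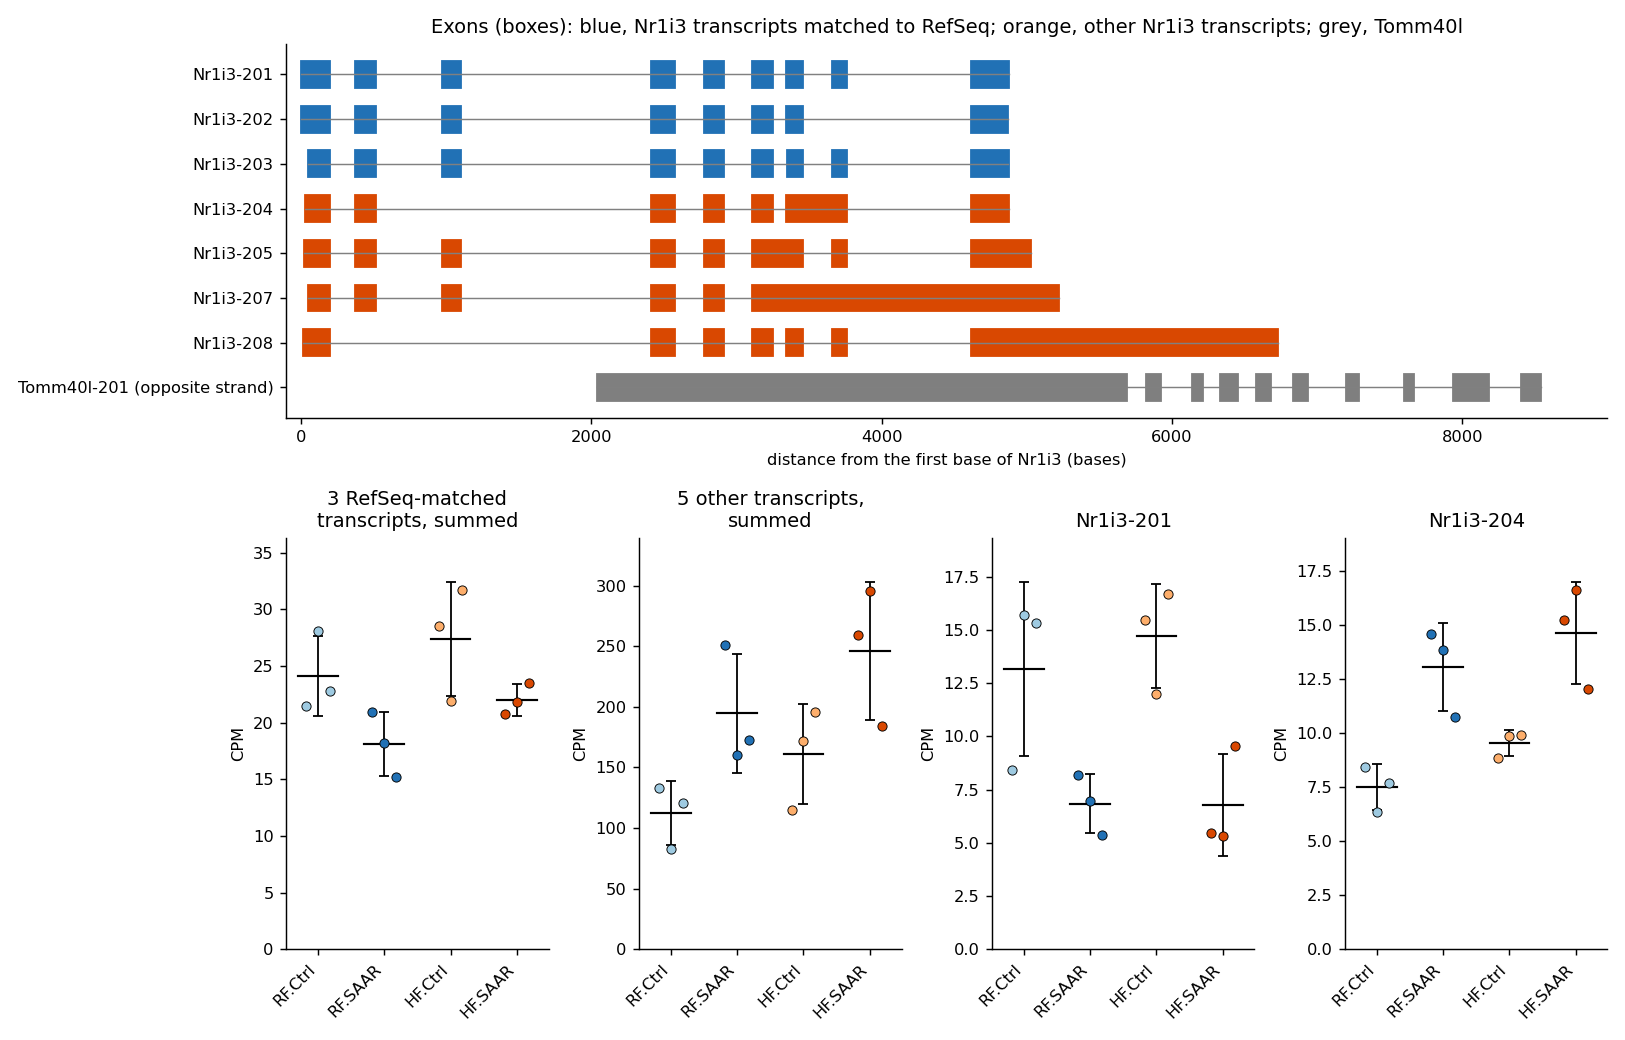
Top, exons of Nr1i3 transcripts matched to RefSeq (blue) and of other Nr1i3 transcripts (orange), with Tomm40l on the opposite strand (grey), by distance in bases from the first base of Nr1i3. Bottom, CPM in each mouse (points; line, mean; bar, SD; n = 3) of the 3 RefSeq-matched transcripts, the 5 others, Nr1i3-201 and Nr1i3-204: the first and the third panel are lower in SAAR, the second and the fourth higher.

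Nr1i3 overlaps Tomm40l, a gene on the opposite strand, and the counting was not stated to use strand, so reads from the shared bases cannot be told apart. All Nr1i3 transcripts share exon bases with Tomm40l, from 828 bases in Nr1i3-202 to 2428 in Nr1i3-207, and the last exon of Nr1i3-208 (chr1:171218589-171220701, 2113 bases) runs across several Tomm40l exons. Tomm40l itself had 25.4 ± 2.66 CPM in RF.Ctrl, 32.3 ± 4.49 in RF.SAAR, 30.6 ± 4.53 in HF.Ctrl and 32.6 ± 1.40 in HF.SAAR, with an averaged difference of 0.22 (SE 0.09, adjusted p = 0.198, edgeR). The estimated counts of transcripts that share most of their exons also depend on how kallisto divides ambiguous reads, an error not included in the SE.

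No Pparg transcript was called, and the split of Pparg by start site rests on low counts. Pparg-202 held 81.3% of the Pparg counts. Pparg-201, which starts at the downstream window above, was listed at 0 in all 3 HF.SAAR mice, while the HF.Ctrl mice had 2.65, 2.05 and 5.18 CPM. On regular fat it had 2.29, 0.91 and 0.42 CPM in RF.Ctrl and 0, 0.84 and 1.27 CPM in RF.SAAR, so the groups overlapped there. In no mouse did it exceed 85.58 estimated counts. The share of all transcripts that separate as it did on high fat was not computed. The adjusted p was 0.125 for HF.SAAR vs. HF.Ctrl and 0.0843 for the average (edgeR on transcripts), and only 127 exon bases distinguish Pparg-201 from its other annotated transcripts. The main Hnf4a transcripts, Hnf4a-201 and Hnf4a-202, have the same exons but for bases at their ends, so their split is not described.

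In the wider superfamily, 40 of 49 listed genes were tested. EdgeR called 0 at either fat level, beside 1.49% of all genes on regular fat and 1.97% on high fat. At an unadjusted p below 0.05, 10 and 6 passed, beside 13.6% and 12.4% of all genes. DESeq2 called 2 and 1, beside 2.47% and 2.49% of all genes. In the average edgeR called 2 higher, Nr1i3 and Esrra, beside 3.22% of all genes called higher. Esrra, a receptor of mitochondrial gene programmes, rose by 0.37 (SE 0.09, adjusted p = 0.0267), a call that survived 6 of 12 removals of a single mouse. Of 18 coregulators tested, edgeR called 1 on high fat and the same 1 in the average, beside 1.97% and 6.92% of all genes. DESeq2 called 1 and 2, beside 2.49% and 5.69% of all genes. The only coregulator edgeR called was Ppargc1a, a coactivator of PPARα, HNF4α and ERRα. It rose from 7.66 ± 1.17 to 17.4 ± 4.78 CPM on high fat (log2 1.18, SE 0.23, adjusted p = 0.0185; lost without HF.Ctrl mouse 1 or 3 or HF.SAAR mouse 1, with effective-length offsets and without 5 mice high in pancreatic acinar markers) and had 11.3 ± 1.77 and 14.7 ± 3.83 CPM on regular fat (0.39, adjusted p = 0.515). Whether these 2 changes differed was tested as an interaction, which was not called.

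Target genes were examined list by list, in the order of their receptors. The lists were written from textbook knowledge with earlier results of these data known, so their counts are descriptions only. Each list count is to be read beside the share of all genes called. With edgeR that share was 1.49% on regular fat, 1.97% on high fat and 6.92% in the average. With DESeq2 it was 2.47%, 2.49% and 5.69%. At an unadjusted p below 0.05 (edgeR) it was 13.6% on regular fat and 12.4% on high fat. Of 23 PPARα targets tested, edgeR called 5 higher on regular fat, 2 on high fat and 8 in the average. Of all genes, 0.6%, 1.01% and 3.22% were called higher there. EdgeR called 0 targets lower, and DESeq2 called 8, 5 and 9 higher and 0, 2 and 1 lower. With library size alone 14 targets were called higher in the average, beside 16.7% of all genes called in either direction. The targets' median log2 change was 0.38, 0.09 and 0.29, against -0.0013, -0.0014 and -0.0039 for all genes. Among the called targets were the Cyp4a fatty acid ω-hydroxylases. Cyp4a14 went from 29.7 ± 15.5 to 810 ± 655 CPM on regular fat and from 62.0 ± 25.3 to 556 ± 270 on high fat, and Cyp4a31 from 5.37 ± 2.44 to 43.1 ± 8.24 and from 7.43 ± 2.62 to 40.3 ± 8.78. Averaged, Cyp4a31 rose by 2.71 (SE 0.24), Cyp4a14 by 3.97 (SE 0.51) and Cyp4a10 by 1.85 (SE 0.30), although these near-identical paralogs may share reads. Fgf21, the fasting hormone, rose by 4.07 (SE 0.54) in the average, and the paper also lists it as a target of ATF4. Pdk4, which restrains pyruvate oxidation, rose by 1.97 (SE 0.41) and Acot2, a mitochondrial thioesterase that resembles Acot1, by 0.93 (SE 0.17). Ehhadh, of peroxisomal β-oxidation, rose on regular fat (0.91, SE 0.17, adjusted p = 0.0185) and had 241 ± 24.8 and 249 ± 28.5 CPM in HF.Ctrl and HF.SAAR. Its interaction of diet and fat was not called by edgeR. The regular-fat call of Ehhadh was kept in 7 of 12 removals of a single mouse and lost when the compared groups were fitted alone.

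The PPARα target count depended on single mice on regular fat, where it fell from 5 to 1 without RF.Ctrl mouse 1, 2 or 3, to 2 without RF.SAAR mouse 3 and to 3 without RF.SAAR mouse 2. On high fat it was 1 without HF.SAAR mouse 2 or 3 or any HF.Ctrl mouse, and in the average it was 5 without HF.Ctrl mouse 1 or 3 or RF.Ctrl mouse 2, and 6 to 9 without any other mouse. It rose to 3 on high fat without RF.SAAR mouse 2. Pancreatic acinar transcripts, 23 markers summed, exceeded 1000 CPM in 5 livers (RF.Ctrl mouse 1, HF.Ctrl mice 1 and 2, HF.SAAR mice 2 and 3; 1451 to 17889 CPM) and were at most 88 CPM in the rest. Without these 5 mice, which leaves 1 mouse in each high-fat group, assumed to vary like the other groups, 2 PPARα targets were called higher on regular fat, 0 on high fat and 2 in the average, and no member was called. The averaged Nr1i3 difference was then 0.50 (adjusted p = 0.246).

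The other lipid lists were mixed. Of 7 PPARγ targets tested, Cd36, a fatty acid transporter, and Plin4, of lipid droplets, rose in the average by 0.65 (SE 0.12) and 1.29 (SE 0.30), and edgeR called 0 at either fat level (4 and 2 had an unadjusted p below 0.05 on regular and high fat, and DESeq2 called 2 and 1). Of 15 LXR targets, 3 lipogenic genes fell in the average: Srebf1 by 0.80 (SE 0.16), Scd1 by 1.83 (SE 0.33) and Elovl6 by 0.59 (SE 0.13), with Elovl6 also called on regular fat (kept in 5 of 12 removals of a single mouse). Scd1 was the one listed gene edgeR called for dietary fat, in the average over both diets, with 1105 ± 129 CPM in RF.Ctrl and 76.3 ± 12.4 in HF.Ctrl. That call was lost without any of 6 mice (HF.Ctrl mice 1, 2 and 3, HF.SAAR mouse 1, RF.Ctrl mice 1 and 3; highest adjusted p = 0.103, edgeR across all genes), with an acinar covariate and without the 5 mice high in acinar markers. The LXR list's median of 0.02 did not share the direction of those 3 genes.

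Among bile acid genes, Slc27a5, the bile acid-CoA synthetase, fell on regular fat (704 ± 6.57 to 525 ± 57.3 CPM), on high fat (741 ± 26.5 to 545 ± 35.8 CPM) and in the average (by 0.43, SE 0.07, adjusted p = 0.00169, edgeR). Its calls on regular and high fat were kept in 4 and 8 of 12 removals of a single mouse. Abcb4, the canalicular phospholipid exporter, rose in the average by 0.30 (SE 0.07, adjusted p = 0.0253). They were the 2 called of 8 FXR-induced genes tested. Of 4 genes that FXR and SHP repress, Cyp7b1, of the alternative bile acid pathway, fell in the average by 0.63 (SE 0.16, adjusted p = 0.0371). Cyp7a1, the rate-limiting enzyme of bile acid synthesis, named after its values were seen, had 6.34 to 165 CPM among RF.Ctrl mice alone and an averaged difference of -0.40 (SE 0.67).

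The xenobiotic lists held calls in both directions. Of 9 PXR targets tested, Ces2a, a carboxylesterase, fell by 0.60 (SE 0.09) and Cyp3a11, the main inducible Cyp3a enzyme, by 0.75 (SE 0.19), while Slco1a4, an organic anion transporter, rose by 0.73 (SE 0.19), all in the average. Of 13 CAR targets, Ephx1, the microsomal epoxide hydrolase, rose by 0.70 (SE 0.07), Gstm1 by 0.96 (SE 0.07) and Gstm3 by 1.18 (SE 0.15), whereas Cyp2c50 fell by 0.47 (SE 0.07). Ephx1 and Gstm1, a glutathione transferase, were called at both fat levels, Cyp2c50 was called lower at both (log2 -0.46 and -0.48), and Gstm3 was called higher on high fat (12.8 ± 1.91 to 52.2 ± 11.5 CPM), where Ces2a was also called lower (log2 -0.68, SE 0.12), except without HF.SAAR mouse 1 or the mice high in acinar markers. The Cyp2c50 call was kept in 2 of 12 removals of a single mouse on regular fat and 6 on high fat. Cyp2b10, the classic CAR target, chosen for mention after its values were seen, was too low to be tested, at 0 to 1.39 CPM over the 12 mice. Cyp2c, Ces2 and Gstm genes have close paralogs, so their counts may include shared reads. Cholangiocyte marker sums, given above, were lower in the SAAR mice at both fat levels, and their part was not tested.

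Of 16 HNF4α targets tested, Otc, of the urea cycle, fell at both fat levels (calls kept in 4 and 7 of 12 removals of a single mouse) and by 0.42 (SE 0.06, adjusted p = 0.0015) in the average, and Apoa4, an intestinal and hepatic apolipoprotein, rose in the average by 1.58 (SE 0.39, adjusted p = 0.0471). The list's median was -0.09, with 4 genes higher and 12 lower. In the averaged comparison, the calls of Slc27a5, Ces2a, Ephx1, Gstm1, Gstm3, Cyp2c50, Otc, Srebf1, Scd1, Elovl6, Cd36, Fgf21, Acot2 and the 3 Cyp4a genes survived the removal of any mouse. Without the 5 mice high in acinar markers, 7 of these 16 were still called (Ces2a, Ephx1, Gstm1, Gstm3, Srebf1, Cd36 and Cyp4a31). The averaged calls of Abcb4, Apoa4, Cyp3a11, Cyp7b1, Pdk4, Plin4, Slco1a4 and Ehhadh were lost for 5 to 10 of the 12 mice.

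**Figure D5:**
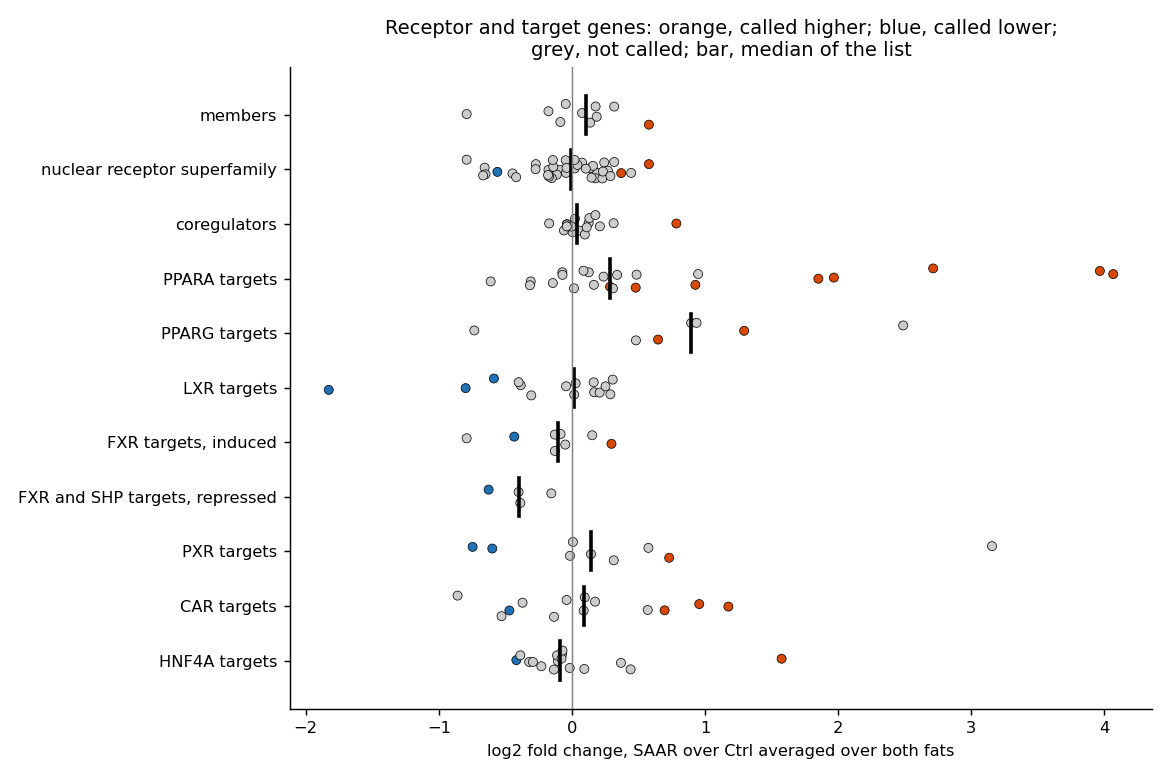
Log2 fold change, SAAR over Ctrl averaged over both fat levels, of the receptors, the superfamily, coregulators and target lists; each point is a gene, orange if called higher, blue if called lower, grey if not called, and the bar is the list's median. PPARα targets reach 4.07 (Fgf21), while Scd1, at -1.83, lies lowest.

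Over the 12 mice, the genes whose log2 CPM followed Nr1i3 most closely, of 7539 genes with a mean of at least 10 CPM, were L3hypdh (Pearson r = 0.863) and Azi2 (r = 0.857). Among the receptors, Nr1h4 followed it most closely (r = 0.842), and the most opposed pair was Pparg and Nr1i2 (r = -0.568). These values include differences between the diet groups and describe only these mice.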

How the data were processed

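Liver RNA of 12 mice was sequenced as polyA-selected paired-end libraries. The authors trimmed reads with cutadapt, checked them with FastQC and deposited, per mouse, kallisto's estimated counts, TPM and effective lengths (the last in another unit, bases) for 118489 Ensembl transcripts. Strand handling was not given in the sources used here. The deposited TPM were summed per gene for levels. The deposited estimated counts were summed over the transcripts of a gene, after 116816 transcripts were matched to GENCODE M21 (GRCm38), and rounded. The 1673 unmatched transcripts held 1.076% of counts and were left out. Totals were 16203094 to 21230092 a mouse, and 0 columns of per-sample values went unused.

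All 12 mice entered one edgeR 4.0.16 quasi-likelihood fit (limma 3.58.1, R 4.3.3) with TMM scaling and filterByExpr, and p-values were Benjamini-Hochberg adjusted over 14670 genes, or over 36098 transcripts. The comparisons share mice, the control mice among them. DESeq2 1.42.0, other scalings, filters and offsets, pancreatic acinar corrections and leaving out each mouse were alternatives. Counting Nr1i3 over RefSeq-matched transcripts, leaving out mice above 1000 CPM of acinar markers, comparing overlap in TPM, and the alternatives for lists and transcripts were chosen after seeing the data. The gene-level test was tested on simulated data. Members and lists were chosen with earlier results of these data known. Named were the members, the called genes of each list (the 6 with the smallest p where more were called) and, for a called member, the 2 genes with the highest Pearson r of log2 CPM (prior count 2) among genes of at least 10 mean CPM. Some results on genes outside the members are not reported here. Mice are numbered within a group in sample order, which pairs nothing. Tables used pandas 2.3.3 and numpy 2.4.6, and plots matplotlib 3.10.9.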

Additional observations from a re-analysis of the deposited data

How the results depend on the processing

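The number of members called averaged over fat was 1, and became 4 with library size alone, 2 with DESeq2, and 0 with no low-count filter, with an acinar covariate, with Nr1i3 counted over RefSeq-matched transcripts or without the 5 mice high in acinar markers. It was 0 to 2 when each mouse was left out. On high fat it became 1 (Nr1i2) with library size alone. No other comparison of members changed its count of 0 under any alternative run. Of the member transcripts, 2 were called, against 4 with library size alone, 4 with at least 10 counts in every mouse, 1 for gene sums and 0 to 2 when each mouse was left out.

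Reversed values of log2 fold changes were as follows. With library size alone they were Pparg (0.051) and Nr1h3 (0.074) on regular fat, Nr1h3 (0.16) and Hnf4a (0.0012) on high fat, and Nr1h3 (0.12) and Hnf4a (0.089) averaged. With effective-length offsets they were Ppard on regular fat (-0.31) and averaged (-0.12), and Ppara (-0.023) and Rxra (-0.0094) on high fat. With RefSeq-matched transcripts Nr1i3 was -0.42, -0.31 and -0.36 on regular fat, on high fat and averaged. Without the acinar-high mice they were Pparg (0.066) and Ppard (-0.038) on regular fat, Ppara (-0.25) and Hnf4a (0.050) on high fat, and Ppara (-0.073) and Hnf4a (0.083) averaged. Leaving out 1 mouse at a time gave ranges across 0 on regular fat for Pparg (-0.33 to 0.065), Ppard (-0.094 to 0.25) and Hnf4a (-0.089 to 0.15), and on high fat for Ppara (-0.032 to 0.41) and Nr1h3 (-0.042 to 0.052). None of these reversed values was called, and the cause was not tested.

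Genes called overall were 218 on regular fat, 289 on high fat and 1015 averaged, against 425, 719 and 2449 with library size alone, 81, 6 and 234 without the acinar-high mice, and 591 and 595 with DESeq2 on regular and high fat; with the compared groups alone, high fat gave 190. Leaving out 1 mouse at a time gave 87 to 244 on regular fat (87 to 99 without an RF.Ctrl mouse, 95 to 152 without RF.SAAR, 143 without HF.Ctrl mouse 1), 110 to 310 on high fat (110 and 158 without HF.Ctrl mice 1 and 3, 119 to 173 without HF.SAAR) and 655 to 968 averaged (655 without HF.Ctrl mouse 1). No paired analysis was run, because each mouse was on a single diet and the numbering within a group pairs nothing.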

Other observations

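Next after L3hypdh and Azi2, the gene that followed Nr1i3 most closely over the 12 mice was Abcg8 (Pearson r = 0.856), a sterol exporter of the canalicular membrane. It was named after its values were seen. The closest neighbours of Nr1i2 were Nrbf2 (r = 0.944) and As3mt (r = 0.937), also named after their values were seen. These values describe 12 mice in 4 diet groups and carry no test.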
